A study of Mus musculus with 19 samples.

Results

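The proteasome genes described here are all mouse genes whose RefSeq symbol starts with Psma, Psmb, Psmc, Psmd or Psme and a number, without the immunoproteasome genes Psmb8, Psmb9 and Psmb10. A gene was a member if a probe named by its accession was well above background on 6 or more of 19 arrays. The rule took 41 of the 25599 genes tested. RefSeq has 49 such symbols, 43 of them protein coding and 6 pseudogenes. Of the protein-coding symbols, 2 had no kept probe: Psmb11, a thymus subunit, and Psme2, for which no probe was named. The 41 members comprise 31 subunits of the core and regulatory particles, 3 assembly chaperones, 4 activator genes, the testis subunit Psma8, Psmc3ip and Psme3ip1. Psmc3ip and Psme3ip1 are not subunits and are members by the spelling of the symbol, though Psme3ip1 binds the activator Psme3. The probe group named Psme2b stands for a copy of Psme2 in RefSeq, and signal from the copies cannot be told apart.

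RNA came from the hippocampus of 8-month-old mice, with 1 Agilent array per sample. UA animals (n = 6) were APP/PS1 mice given urolithin A, a gut bacterial metabolite of dietary ellagitannins, at 200 mg per kg per day in DMSO by gavage from 6 to 8 months of age. VEH animals (n = 7) were APP/PS1 mice given DMSO alone, and WT animals (n = 6) were their littermates given DMSO. APP/PS1 mice are a transgenic model that deposits amyloid in the brain. In the stock that the labels name, the mouse prion promoter drives the transgenes, so transgene expression is strongest in neurons. The comparison of VEH with WT asks how the amyloid model differed from littermates, and that of UA with VEH asks what the treatment changed within it. Nothing beyond the group sizes ties an array to an animal, and if some arrays share an animal the p-values reflect only the spread between arrays.

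The proteasome is the cell's main machine for degrading proteins tagged with ubiquitin. Its barrel-shaped core particle has outer alpha rings, which gate the entrance, and inner beta rings, of which Psmb5, Psmb6 and Psmb7 carry the chymotrypsin-like, caspase-like and trypsin-like sites. The regulatory particle binds the core: its base unfolds substrates with the ATPases Psmc1 to Psmc6, and its lid removes ubiquitin. Under interferon gamma the inducible subunits Psmb8, Psmb9 and Psmb10 take the places of Psmb5, Psmb6 and Psmb7 in newly made immunoproteasomes, which microglia form in inflamed brain. When proteasome activity is low, the factor NFE2L1 raises constitutive subunit genes together through antioxidant response elements.

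Promoter sequence is shown for the catalytic pairs, because Psmb8 and Psmb5, and Psmb9 and Psmb6, changed unequally in VEH against WT below. The pair of Psmb10 and Psmb7 did not pass that test. Each stretch is the last 120 bases before the RefSeq start (assembly GRCm38.p6). Capitals mark the letters TGACNNNGC of the antioxidant response element, on either strand. Psmb7 is not in the promoter table.
Psmb5, chr14:54617996-54618115, minus strand: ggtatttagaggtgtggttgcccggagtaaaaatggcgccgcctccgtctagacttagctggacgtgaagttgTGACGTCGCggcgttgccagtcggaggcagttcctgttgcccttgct
Psmb8, chr17:34198075-34198194, plus strand: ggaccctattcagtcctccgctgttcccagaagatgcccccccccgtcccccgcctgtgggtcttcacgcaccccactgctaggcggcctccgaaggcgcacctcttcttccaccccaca
Psmb6, chr11:70525237-70525356, plus strand: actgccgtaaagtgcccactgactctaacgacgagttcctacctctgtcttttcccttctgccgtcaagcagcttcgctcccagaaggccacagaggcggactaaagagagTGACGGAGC
Psmb9, chr17:34187331-34187450, minus strand: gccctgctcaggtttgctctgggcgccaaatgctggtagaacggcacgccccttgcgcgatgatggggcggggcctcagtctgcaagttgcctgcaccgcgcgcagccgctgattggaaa
Psmb10, chr8:105938393-105938512, minus strand: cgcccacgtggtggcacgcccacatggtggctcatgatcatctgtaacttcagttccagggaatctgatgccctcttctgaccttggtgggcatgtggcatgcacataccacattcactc
Psmb5 and Psmb6 each had 1 element match, 47 and 9 bases before the start. The letters did not stand in the 250 bases before Psmb8, Psmb9 or Psmb10.

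Of the 41 members, 34 are in the promoter table, and the 250 bases before the start were searched on both strands. The element letters TGACNNNGC stood before 5 of 34 members (14.7%) and before 11.5% of all 27025 symbols in the table. Beside Psmb5 and Psmb6 these were the base ATPase Psmc6, the lid subunit Psmd12 and the assembly chaperone Psmd9, shown with their flanks and the element in capitals.
Psmc6, chr14:45329577-45329625, plus strand: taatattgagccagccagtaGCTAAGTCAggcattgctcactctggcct
Psmd12, chr11:107479278-107479309, plus strand: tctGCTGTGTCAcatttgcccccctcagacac
Psmd9, chr5:123228139-123228187, plus strand: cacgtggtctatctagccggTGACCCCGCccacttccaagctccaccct
The CCAAT box, bound by NF-Y, stood before 14 of 34 members (41.2%) and before 37.5% of all symbols. The GC box GGGCGG, bound by SP1, stood before 20 of 34 members (58.8%) and before 35.4% of all symbols. The interferon-stimulated response element was read as GAAA, any 2 bases and GAAA. It stood before Psmb3, Psmd4 and Psmd9 (8.82% of the members) and before 3.46% of all symbols, but not before Psmb8, Psmb9 or Psmb10. None of the 4 letter patterns contains another, though matches of different patterns may share bases. These matches are letters in a window and not measured binding.

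Each level is log2 of a probe's processed green signal after subtraction of the log2 75th percentile of its array, so a level of 0 equals that percentile and a difference of 1 is a 2-fold change. Where a gene had several kept probes the brightest stood for it, and 18 of the 41 members had more than 1. Over the arrays the 75th percentile ran from 663 to 1776 intensity units, and the share of probes well above background was 51.4% to 59.4%. The arrays lay on 3 slides. Slide 1 held 2 VEH and 6 WT arrays, slide 2 held 3 UA and 5 VEH arrays, and slide 3 held 3 UA arrays, so UA and WT share no slide. By sex-linked transcripts, 1 of 6 UA, 3 of 7 VEH and 1 of 6 WT arrays were female. All 6 hippocampal excitatory markers and all 8 neuronal markers were well above background on every array.

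2 arrays stood apart for the members. VEH replicate 3 had the lowest 75th percentile (663) and was the highest VEH array for 32 of 41 members, against 32.7% of all genes tested. It was the lowest VEH array for 6 members. On that array and on WT replicate 1, the alpha subunit Psma5, the ATPase Psmc6, the lid subunit Psmd3, the activator subunit Psme1 and Psma8 all lay more than 0.5 below their group median. That is 5 of 41 members (12.2%), against 4.31% of all genes tested. Psmd14 has no usable spot on WT replicate 1, and its fit drops that array.

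**Figure D1:**
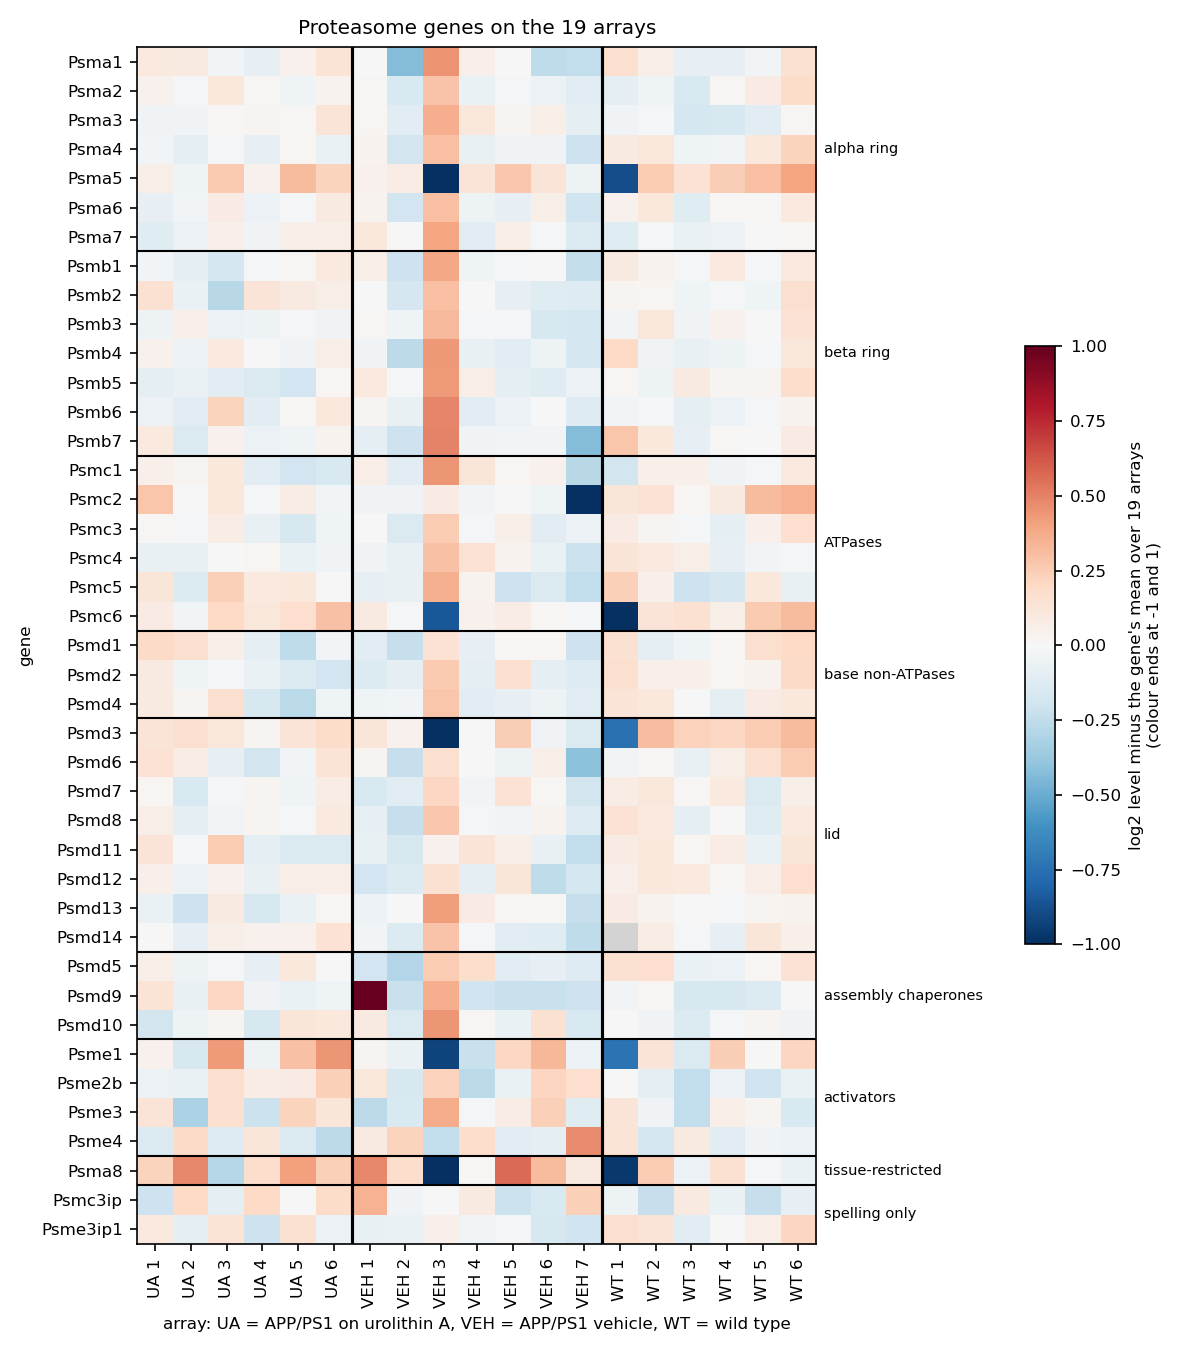
Heat map of the 41 members (rows, by class) on the 19 arrays (columns, UA, VEH, WT), coloured by log2 level minus the gene's mean over arrays. VEH replicate 3 is red for most members, while Psma5, Psmc6, Psmd3, Psme1 and Psma8 are dark blue there and on WT replicate 1; the grey cell is Psmd14 on WT replicate 1.

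Psma5 shows the pattern most clearly. Its levels were 3.61, 3.79 and 3.96 in UA (lowest, median, highest), 1.73, 3.72 and 3.92 in VEH, and 2.76, 3.89 and 4.04 in WT. The next lowest VEH array stood at 3.59, so the groups overlapped apart from these 2 arrays. Psmd3 was at 3.81 on VEH replicate 3, 1.54 below the VEH median, and at 4.61 on WT replicate 1, 0.99 below the WT median. A second Psmd3 probe was at 0.73 on VEH replicate 3, the highest VEH value, against a VEH median of 0.56, and at 0.51 on WT replicate 1, slightly below the WT median of 0.59. For Psma3, a structural alpha subunit, the brighter probe was high on VEH replicate 3 (5.15), and a second probe was 0.63 below the group median there and 0.79 below on WT replicate 1. Psma5, Psmc6, Psme1 and Psma8 had 1 kept probe each, so no second probe could be compared. The cause of the low values was not tested.

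**Figure D2:**
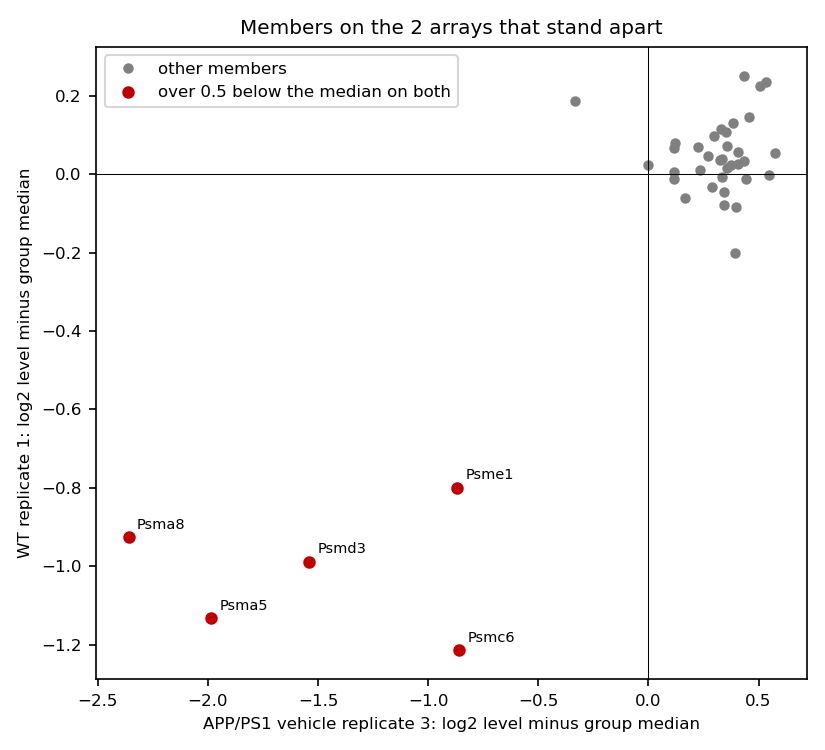
Each point is a member (40, without Psmd14): its log2 level on VEH replicate 3 minus the VEH median (x) against its level on WT replicate 1 minus the WT median (y). Psma5, Psmc6, Psmd3, Psme1 and Psma8 lie below -0.5 on both axes, and most other members lie right of 0 and near 0 on y.

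No constitutive proteasome gene passed the test between APP/PS1 vehicle mice and WT littermates. With limma and Benjamini-Hochberg adjustment over all genes, 0 of 41 members had an adjusted p under 0.05, against 5.05% of all genes tested (1294 of 25599; 2.77% higher and 2.28% lower), and 2 members had an unadjusted p under 0.05, against 23.7% of all genes. The members' differences were small: the median was -0.05, against 0.01 for all genes, and 29 of 41 were below 0, against 48.6% of all genes. The 95% interval lay within 1.5-fold either way for 37 members (64.9% of all genes) and within 1.2-fold for 20 (15.7% of all genes). Leaving out VEH replicate 3 gave a median of -0.09, with 30 of 41 below 0, and 11 members had an unadjusted p under 0.05, against 28.1% of all genes. In 0 of 41 members did the VEH and WT arrays not overlap, against 2.31% of all genes. In bulk tissue, fewer cells of a type and less RNA per cell cannot be told apart. Neuronal markers were a median of 0.28 lower in VEH than in WT, with 7 of 8 below 0 and 0 called; their mean level ran from 5.11 to 5.56 in VEH and from 5.41 to 5.82 in WT, and their part in the members' differences was not tested. Microglial markers were a median of 0.57 higher, with 5 of 7 called. Their mean level ran from 2.10 to 2.29 in VEH and from 1.48 to 1.74 in WT. Interneuron markers were a median of 0.29 lower, with 6 of 6 below 0. Choroid plexus markers were a median of 1.37 higher, with 6 of 6 above 0. Their mean level ran from -3.68 to 4.37 in VEH and from -1.29 to 3.81 in WT. Oligodendrocyte markers were a median of 0.16 higher, with 6 of 6 above 0. In the interneuron, choroid plexus and oligodendrocyte lists 0 were called, and their part was not tested.

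Of the alpha ring subunits, 5 of 7 lay below 0. Psma3 had the smallest p in the class, with levels of 4.68, 4.81 and 5.15 in VEH (lowest, median, highest) and 4.61, 4.71 and 4.79 in WT, a difference of 0.14 (SE 0.07, adjusted p = 0.226 by limma) that was 0.09 without VEH replicate 3. Psma5 had the largest difference, -0.27 (95% interval -0.87 to 0.34). Without VEH replicate 3 and WT replicate 1 that difference was -0.17 (-0.33 to -0.01, adjusted p = 0.163). The VEH and WT ranges overlapped for both genes.

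The 7 beta ring subunits differed by -0.11 to 0.05, with 6 of 7 below 0. Psmb5 had 3.40, 3.50 and 3.94 in VEH (lowest, median, highest) and 3.47, 3.54 and 3.69 in WT, a difference of -0.01 (95% interval -0.17 to 0.16). Psmb6 had 5.48, 5.55 and 6.10 in VEH and 5.51, 5.58 and 5.65 in WT, a difference of 0.05 (-0.14 to 0.24). Psmb7 had 2.24, 2.64 and 3.17 in VEH and 2.60, 2.72 and 2.96 in WT, a difference of -0.11 (-0.34 to 0.11), the largest in the class. For all 3 catalytic subunits the highest VEH value was replicate 3. Without that array Psmb5 was at -0.07, Psmb6 turned to -0.03 and Psmb7 was at -0.20 (-0.37 to -0.04, adjusted p = 0.112), so that all 7 beta ring subunits lay below 0. For Psmb7, VEH replicates 7, 2 and 1 (2.24, 2.47 and 2.59) lay below every WT array, replicate 1 only narrowly.

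Among the ATPases of the base, Psmc2 differed most, at -0.38 (SE 0.18, adjusted p = 0.204). VEH replicate 7 stood at 2.82, and the other VEH arrays ran from 4.18 to 4.30, against 4.24 to 4.57 in WT. Without VEH replicate 7 the difference was -0.19 (95% interval -0.33 to -0.04, adjusted p = 0.140). Within slide 1, which also lacks that array, it was -0.21 (95% interval -0.46 to 0.04). VEH replicate 7 had the lowest mean of interneuron markers in VEH, 1.83 against a VEH median of 2.76; whether that bears on Psmc2 was not tested. Of the base scaffold and receptor subunits, Psmd1 had -0.13 (SE 0.08), Psmd2 -0.10 (SE 0.07) and the ubiquitin receptor Psmd4 -0.07 (SE 0.08), with no adjusted p below 0.335. The Psmd4 difference was -0.12 without VEH replicate 3.

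The lid held the member with the smallest p. Psmd12, a scaffold subunit of the lid, had 3.44, 3.55 and 3.84 in VEH (lowest, median, highest) and 3.70, 3.77 and 3.86 in WT. Of the VEH arrays 5 lay at 3.60 or below, under every WT array, and replicates 3 and 5 lay inside the WT range. The difference was -0.17 (SE 0.07, 95% interval -0.31 to -0.02), with an unadjusted p of 0.0270 and an adjusted p of 0.157 by limma. It was -0.25 within slide 1 (-0.43 to -0.06, adjusted p = 0.178) and -0.20 without VEH replicate 3 (adjusted p = 0.0553). Psmd3 was -0.28 (SE 0.23). Without VEH replicate 3 and WT replicate 1 it was -0.23 (SE 0.06), and its adjusted p of 0.0505 just missed the threshold. Psmd14, the lid's deubiquitinase, was -0.08 (SE 0.08), and -0.14 without VEH replicate 3. In all, 7 of 8 lid genes lay below 0.

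The assembly chaperones, activators and the 3 remaining members showed no common direction. Psmd5, an assembly chaperone, was -0.11 (SE 0.08). Psmd9, another chaperone, was 0.13 (SE 0.17), with VEH replicate 1 at 0.76 against a VEH median of -0.50. Without VEH replicate 1 it turned to -0.04 (SE 0.10). Psme2b was 0.14 (SE 0.09, adjusted p = 0.320). Psme1, a subunit of the interferon-induced PA28 activator, was -0.05 (SE 0.19) and stayed at -0.05 (SE 0.13) without VEH replicate 3 and WT replicate 1. Psma8, well above background on 17 of 19 arrays, was 0.04 (SE 0.34), and 0.22 (SE 0.13) without VEH replicate 3 and WT replicate 1. Psme3ip1, which binds the nuclear activator Psme3, was -0.15 (SE 0.07).

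**Figure D3:**
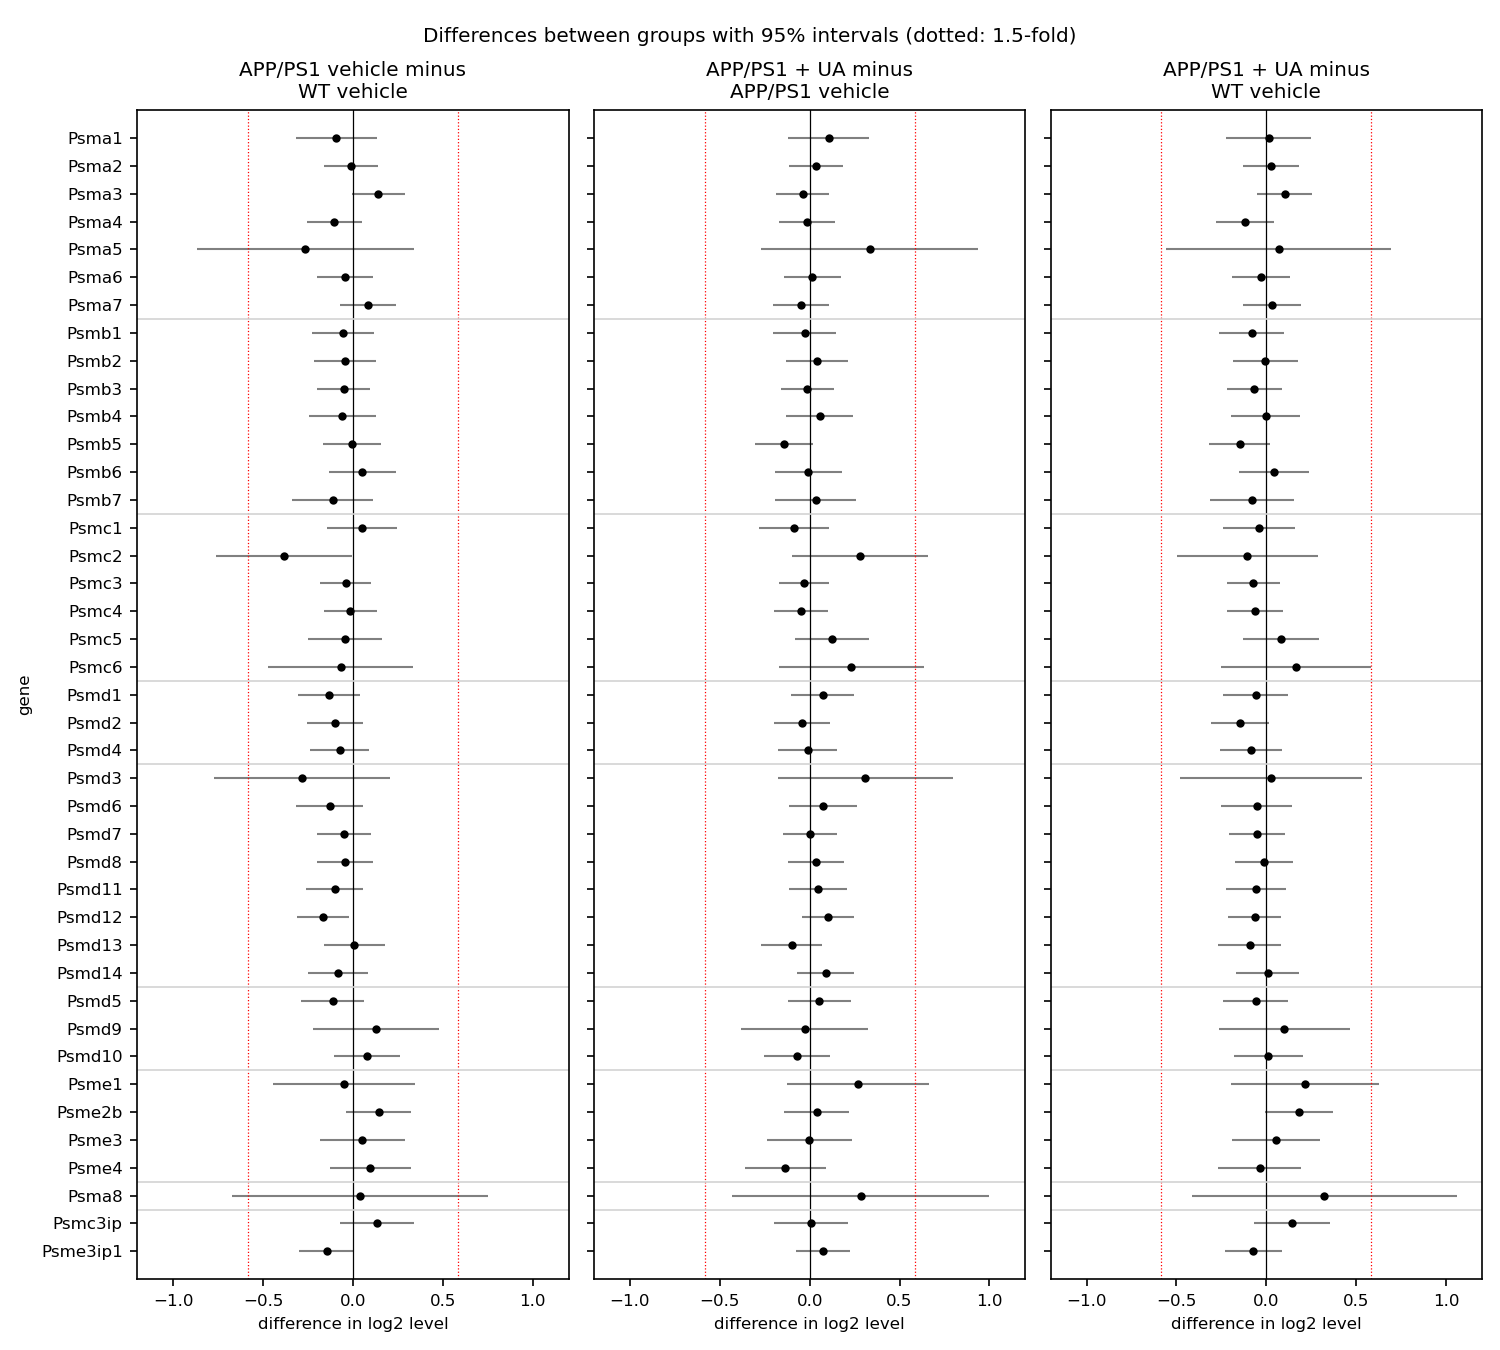
Differences in log2 level for the 41 members (rows) in the 3 comparisons (panels), with 95% intervals from limma and dotted lines at 1.5-fold. Intervals cross or touch 0 for all members but Psmc2 and Psmd12 in VEH minus WT, and the widest belong to Psma8, Psma5 and Psmd3.

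No member passed the test between urolithin A and vehicle in APP/PS1 mice. In UA against VEH, limma called 0 of 41 members and 0% of all genes tested (0 of 25599); at an unadjusted p under 0.05 there were 0 members and 15.4% of all genes. The members' median difference was 0.03, against -0.01 for all genes, with 17 of 41 below 0 (51.2% of all genes). The 95% interval lay within 1.5-fold for 35 members (67.8% of all genes) and within 1.2-fold for 27 (20.3% of all genes). In 0 of 41 members did the UA and VEH arrays not overlap, against 0.848% of all genes. VEH replicate 3 moved this summary: without it the median was 0.06, 7 of 41 lay below 0, and 5 members had an unadjusted p under 0.05, against 18.3% of all genes. Within slide 2 (3 UA and 5 VEH arrays) the median was -0.01, with 22 of 41 below 0.

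The smallest p in UA against VEH belonged to Psmb5. Its levels were 3.32, 3.41 and 3.53 in UA (lowest, median, highest), against 3.40, 3.50 and 3.94 in VEH, and the groups overlapped. The difference was -0.14 (SE 0.08, 95% interval -0.31 to 0.02, adjusted p = 0.381), and without VEH replicate 3 it was -0.08 (-0.20 to 0.04). Psmb6 differed by -0.01 (-0.19 to 0.18) and Psmb7 by 0.03 (-0.19 to 0.26). Psmb6 turned to 0.07 (-0.06 to 0.20) without VEH replicate 3, and Psmb7 was at 0.12 (-0.04 to 0.29). The largest differences, 0.33 for Psma5, 0.31 for Psmd3 and 0.28 for Psma8 and Psmc2, came from the genes with outlying VEH arrays. Without VEH replicate 3 and WT replicate 1, Psma5 was 0.05 (SE 0.07), Psmd3 0.08 (SE 0.06) and Psma8 -0.07 (SE 0.12). Without VEH replicate 7, Psmc2 was 0.08 (SE 0.07).

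In the other classes, the smallest p in UA against VEH belonged to Psmd1 of the base, at 0.07 (SE 0.08), Psmd12 of the lid, at 0.10 (SE 0.07, adjusted p = 0.488), the chaperone Psmd10, or gankyrin, at -0.07 (SE 0.09; -0.003 without VEH replicate 3), and the activator subunit Psme1, at 0.27 (SE 0.19). The Psme1 difference was 0.13 (SE 0.12) without VEH replicate 3 and WT replicate 1. Psme3ip1 differed by 0.07 (SE 0.07). In the lid 7 of 8 genes lay above 0, with a median of 0.06.

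No member passed between UA and WT. Limma called 0 of 41 members, against 0.0898% of all genes (23 of 25599), and at an unadjusted p under 0.05 there were 0 members and 8.65% of all genes. The median was -0.03, against -0.01 for all genes, and 24 of 41 lay below 0 (52.9% of all genes). The 95% interval lay within 1.5-fold for 38 members (70.9% of all genes) and within 1.2-fold for 24 (19.5% of all genes). In 0 of 41 members did the UA and WT arrays not overlap, against 1.07% of all genes. Psmb5 was at -0.15 (SE 0.08, adjusted p = 0.632), Psma4 of the alpha ring at -0.12 (SE 0.08), Psmd2 of the base at -0.15 (SE 0.08), Psmd13 of the lid at -0.09 (SE 0.08) and Psme2b at 0.18 (SE 0.09, adjusted p = 0.587). Psmc3 was at -0.07 (SE 0.07), Psmc6 at 0.16 (SE 0.20) and Psmc3ip, a meiotic recombination cofactor, at 0.14 (SE 0.10). The Psmc6 value turned to -0.05 (SE 0.14) without WT replicate 1, which stood at 2.68 against 3.81 to 4.07 on the other WT arrays. The 3 comparisons share arrays, so their counts are not independent.

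Of the inducible catalytic subunits, Psmb8 and Psmb9 rose in VEH against WT, and Psmb10 did not pass the test. Psmb8 had -1.26, -0.90 and -0.61 in VEH (lowest, median, highest) and -2.04, -1.68 and -1.30 in WT, so every VEH array lay above every WT array. The difference was 0.80 (SE 0.12), or 1.74-fold, with an adjusted p of 0.00110 by limma. Psmb9 had -1.15, -0.86 and -0.51 in VEH and -1.84, -1.56 and -1.28 in WT, again without overlap. It rose by 0.69 (SE 0.10), or 1.61-fold (adjusted p = 7.43e-04). Psmb10 had 3.44, 3.77 and 4.52 in VEH and 3.61, 3.83 and 4.13 in WT, a difference of 0.05 (SE 0.14, adjusted p = 0.840), and the groups overlapped. Within slide 1 (2 VEH and 6 WT arrays) the differences were 0.85 for Psmb8 and 0.67 for Psmb9, each with an adjusted p of 0.132. The microglial markers given above moved with these genes. Astrocyte markers did too, with a median of 0.31, 7 of 7 above 0 and 3 called; their mean level ran from 2.78 to 3.02 in VEH and from 2.40 to 2.70 in WT. The part of either cell type was not tested.

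In UA, Psmb8 and Psmb9 had means between those of the other groups. Psmb8 had -1.46, -1.32 and -1.10 in UA, against -1.26, -0.90 and -0.61 in VEH, a difference of -0.42 (SE 0.12, adjusted p = 0.152 by limma). Psmb9 had -1.31, -1.21 and -1.10 in UA, against -1.15, -0.86 and -0.51 in VEH, a difference of -0.34 (SE 0.10, adjusted p = 0.159). Neither passed, and the UA and VEH ranges overlapped for both. Under normexp background correction both passed. The Psmb8 difference was -0.35 there (adjusted p = 0.0352 by limma), and that of Psmb9 was -0.30 (adjusted p = 0.0424). That setting called many other genes in this comparison too, most of them lower, where the main fit called 0 of 25599. Its count is given with the processing settings below. The median difference of microglial markers in UA against VEH was -0.21, with 6 of 7 below 0 and 0 called; their mean level ran from 1.76 to 2.20 in UA and from 2.10 to 2.29 in VEH, and their part was not tested. Against WT the UA differences were 0.38 (adjusted p = 0.404) and 0.35 (adjusted p = 0.337).

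Whether the inducible and the constitutive subunit of a pair changed unequally was tested on the difference of their log2 levels within each array. An exact 2-sided permutation test was run for 3 pairs in 3 comparisons, adjusted over these 9. Psmb8 minus Psmb5 was 0.81 higher in VEH than in WT (95% interval 0.48 to 1.13, exact p = 0.00350, adjusted 0.0195), with 7 of 7 VEH arrays above the WT mean. Psmb9 minus Psmb6 was 0.64 higher (0.33 to 0.95, exact p = 0.00466, adjusted 0.0195), in 6 of 7 VEH arrays. Psmb10 minus Psmb7 was 0.17 higher (-0.05 to 0.38, adjusted p = 0.157 by the exact test). The groups overlapped for all 3 pairs. A within-array ratio shows unequal change and does not show that the constitutive subunit did not change.

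In UA against VEH the paired differences were -0.28 for Psmb8 minus Psmb5 (95% interval -0.60 to 0.05, adjusted p = 0.147 by the exact test) and -0.33 for Psmb9 minus Psmb6 (-0.64 to -0.02, adjusted p = 0.103). In each pair 0 of 6 UA arrays lay above the VEH mean. Without VEH replicate 3, which was high for Psmb5 and Psmb6, the differences were -0.36 (-0.67 to -0.05) for Psmb8 minus Psmb5 and -0.44 (-0.69 to -0.20) for Psmb9 minus Psmb6. Psmb10 minus Psmb7 was -0.001 (-0.22 to 0.22). Against WT, the first pair was 0.53 higher in UA (0.19 to 0.87, adjusted p = 0.0195 by the exact test), in 6 of 6 arrays, and the second 0.31 higher (-0.01 to 0.63, adjusted p = 0.0731), also in 6 of 6. UA and WT share no slide, and with slide as a block the first pair was at 0.65 (-0.03 to 1.34, unadjusted p = 0.0602 by least squares) and the second at 0.30 (-0.35 to 0.95). Among male arrays alone the genotype differences were 0.55 (0.18 to 0.91) and 0.41 (0.05 to 0.77), and the UA differences from VEH were -0.05 (-0.42 to 0.31) and -0.14 (-0.50 to 0.22). Within slide 1 the genotype differences were 0.85 and 0.65, and within slide 2 the UA differences were -0.20 (-0.82 to 0.41) and -0.35 (-0.99 to 0.28).

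**Figure D4:**
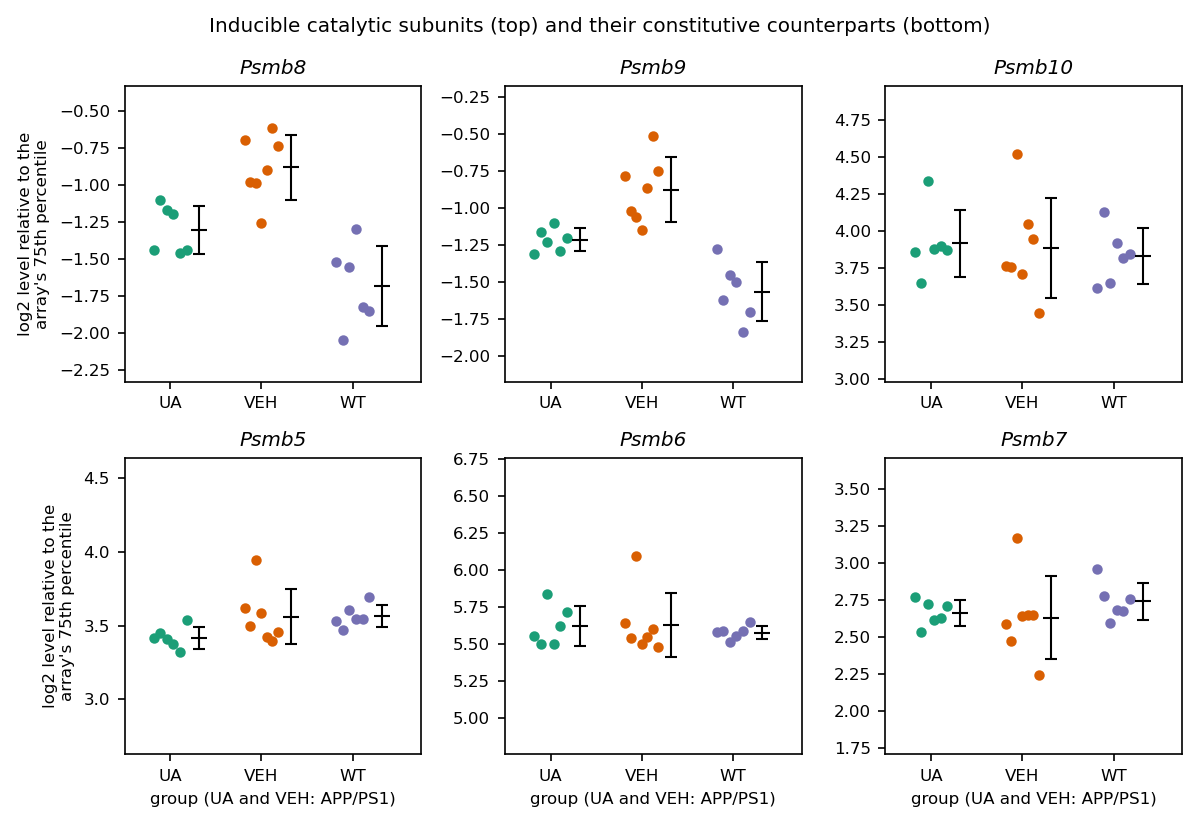
Log2 level relative to the array's 75th percentile for Psmb8, Psmb9 and Psmb10 (top) and Psmb5, Psmb6 and Psmb7 (bottom) by group, 1 point per array, with mean and SD. Each panel spans the same number of log2 units, and VEH lies above WT without overlap for Psmb8 and Psmb9.

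Genes around the proteasome were read from lists of assembly and receptor factors, transcriptional control, and ubiquitin with its activation and delivery. Of 14 assembly and receptor factors, 0 were called in VEH against WT, beside 5.05% of all genes. An unadjusted p under 0.05 by limma was found for 4 of them, beside 23.7% of all genes. The closest were the core chaperone Psmg4, at 0.19 (SE 0.08, adjusted p = 0.155), and the proteasome-bound deubiquitinase Uchl5, at -0.22 (SE 0.09, adjusted p = 0.157). In UA against VEH 0 of 14 were called, as were 0 of all 25599 genes. Of the 14, 1 had an unadjusted p under 0.05 by limma, beside 15.4% of all genes. The ubiquitin ligase Ube3c was at 0.22 (SE 0.09, adjusted p = 0.234) and the core chaperone Psmg3 at -0.17 (SE 0.09, adjusted p = 0.350).

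Of 14 genes tested for transcriptional control (Ddi1 was not tested), 1 was called in VEH against WT, beside 5.05% of all genes. Of the 14, 6 had an unadjusted p under 0.05 by limma, beside 23.7% of all genes. Ngly1, the deglycosylase that processes NFE2L1, fell by 0.20 (SE 0.05, adjusted p = 0.0306 by limma). Its levels were -0.47, -0.37 and -0.25 in VEH (lowest, median, highest) and -0.23, -0.18 and -0.11 in WT, without overlap. Over fits that each left out 1 array its adjusted p ran from 0.0128 to 0.0725, and the call was lost without VEH replicate 1 or 2 or WT replicate 1, 2, 4, 5 or 6. Nfe2l1 itself was at -0.17 (SE 0.07, adjusted p = 0.163) and the NF-Y subunit Nfyb at -0.23 (SE 0.08, adjusted p = 0.0850). In UA against VEH none of the 14 was called by limma and 2 had an unadjusted p under 0.05, beside 15.4% of all genes; Ngly1 was at 0.15 (SE 0.05, adjusted p = 0.198) and Nfya at -0.24 (SE 0.10, adjusted p = 0.256).

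Of 15 ubiquitin genes, 3 were called in VEH against WT, 1 higher and 2 lower, against 5.05% of all genes. At an unadjusted p under 0.05 by limma there were 7 of 15, against 23.7% of all genes. Ubb, a polyubiquitin gene, had 8.42, 8.52 and 8.82 in VEH (lowest, median, highest) and 8.67, 8.96 and 9.11 in WT, and fell by 0.38 (SE 0.09, adjusted p = 0.0224 by limma). A second Ubb probe fell by 0.36 (SE 0.08). The Ubb difference was much smaller on other scales: -0.19 (adjusted p = 0.168) with quantile normalization, -0.07 (adjusted p = 0.639) with normexp and -0.02 (adjusted p = 0.936) without dye normalization. Ubqln2, a shuttle that carries ubiquitin-tagged proteins to the proteasome, had 5.13, 5.27 and 5.61 in VEH and 5.53, 5.73 and 5.85 in WT, and fell by 0.37 (SE 0.09, adjusted p = 0.0330). Rps27a, which encodes ubiquitin fused to a ribosomal protein, had 6.23, 6.55 and 6.67 in VEH and 5.92, 6.09 and 6.30 in WT, and rose by 0.36 (SE 0.09, adjusted p = 0.0265). A second, dimmer Rps27a probe went the other way, at -0.51 (SE 0.34). The VEH and WT ranges overlapped for all 3 genes, and because ubiquitin genes have near-identical copies their probes may share signal.

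Each of these calls was near the threshold. Over fits that each left out 1 array, the adjusted p ran from 0.00793 to 0.0655 for Ubb, 0.0144 to 0.0826 for Ubqln2 and 0.0177 to 0.0727 for Rps27a. All 3 calls were lost without VEH replicate 1 or WT replicate 2 or 6; those of Ubqln2 and Rps27a also without VEH replicate 2 or 7 or WT replicate 4, and those of Ubb and Ubqln2 without WT replicate 5. In UA against VEH 0 of 15 ubiquitin genes were called by limma and 4 had an unadjusted p under 0.05, beside 15.4% of all genes; Ubqln2 was at 0.25 (SE 0.09, adjusted p = 0.232) and Ubqln1 at 0.20 (SE 0.08, adjusted p = 0.276). Neuronal markers were lower in VEH than in WT, as were Ubb and Ubqln2, and in UA against VEH 8 of 8 lay above 0 (median 0.11, 0 called); their part was not tested.

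**Figure D5:**
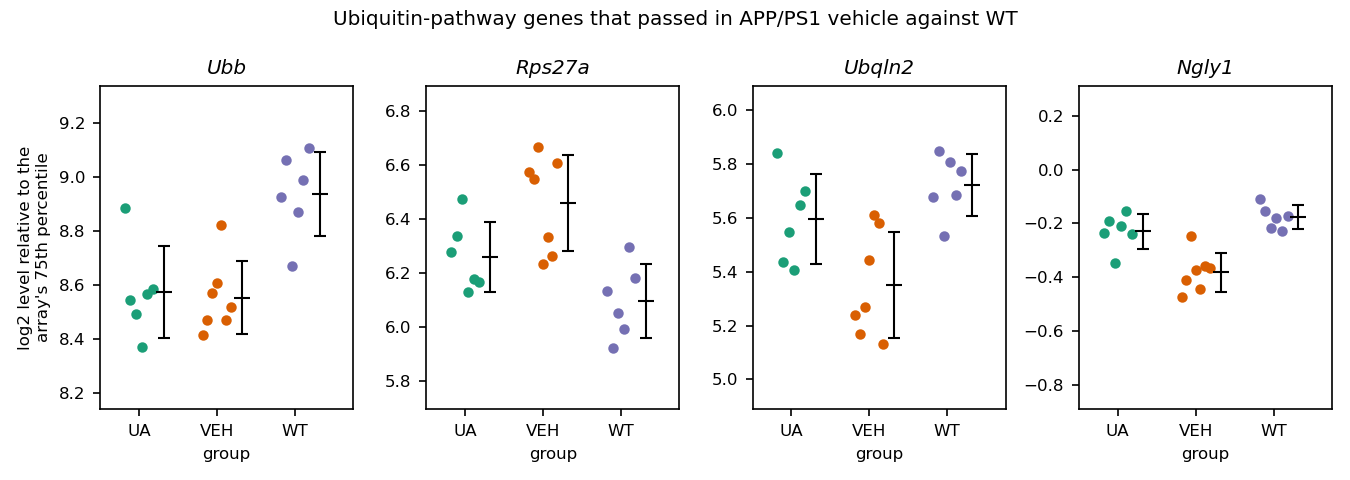
Log2 level relative to the array's 75th percentile for Ubb, Rps27a, Ubqln2 and Ngly1 by group, 1 point per array, with mean and SD. The VEH mean lies below that of WT for Ubb, Ubqln2 and Ngly1 and above it for Rps27a. VEH and WT points overlap for all but Ngly1. UA means lie between those of the other groups for each gene, next to VEH for Ubb.

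Within groups the members varied little. The median SD between arrays of a group was 0.14 over the 41 members, against 0.23 over all genes tested, and 23 members were under 0.15, against 21.9% of all genes. The smallest was 0.10 for the ATPase Psmc3, whose levels were 6.53, 6.66 and 6.77 in UA (lowest, median, highest), 6.54, 6.67 and 6.95 in VEH and 6.60, 6.73 and 6.86 in WT. The largest were 0.65 for Psma8, 0.55 for Psma5 and 0.44 for Psmd3. Without VEH replicate 3 and WT replicate 1 these became 0.22, 0.12 and 0.09, and the members' median was 0.11, against 0.20 for all genes.

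VEH replicate 3 was above its group median for 34 of 41 members, against 50.7% of all genes, and VEH replicate 7 below it for 36, against 42.9% of all genes. Some other arrays were split nearly evenly, such as UA replicate 5 with 21 members above and 20 below, and others were not, such as UA replicate 4 with 9 above and 32 below. The median member deviation from the gene's own mean ran from -0.05 to 0.06 over UA arrays, from -0.16 to 0.28 over VEH arrays and from -0.04 to 0.11 over WT arrays. Among the 18 members with several kept probes, every probe had the same sign in 15 for VEH against WT and in 10 for UA against VEH, and none of the 64 kept probes was called in either comparison (lowest adjusted p 0.166 and 0.398 in a limma fit over probes).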

How the data were processed

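Spot intensity was read from scanner output of Agilent Feature Extraction 12.0.3.1, run with a 2-colour protocol; the processed green intensity was background-subtracted and dye-normalized by the authors' software, per the file headers. Cy3 (green) carried the samples, per the labels' protocols, from 200 ng of RNA; no red sample is described. The deposited value table holds a score, which recomputation from the scanner files matched to log10 of that intensity, centred and divided by its SD per array, within 0.005. Medians of its columns ran from -0.28 to -0.17; scale, centring and direction are thus known.

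Control and non-uniform spots were left out and spots of a probe averaged, which gave 56605 probes, 33450 of them kept. Symbols came from RefSeq (GRCm38.p6) by accession for 32994 probes; other probes were tested under their own names. Groups were compared in 1 fit over 19 arrays with limma 3.58.1 (lmFit, eBayes; R 4.3.3), 2-sided, with Benjamini-Hochberg adjustment over 25599 genes. Simulated data with known changes were used to test the fit. Exact permutation tests used scipy 1.17.1, tables pandas 2.3.3 and figures matplotlib 3.10.9.

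Replicate numbers were not used to pair samples in the main fit. Deviations of same-numbered arrays correlated at -0.54 to 0.19 (VEH and WT), -0.28 to 0.39 (UA and VEH) and -0.55 to 0.15 (UA and WT). The correlation was above 0.1 in 4 of 6 pairs of UA and VEH, and in 2 of 6 for each other comparison. The normexp alternative used the median signal. Members, lists, classes and the rule for named genes (each class's smallest p and largest difference, catalytic subunits, called genes and the 2 smallest p of related lists) were chosen with earlier results of these data known. Genes or arrays discussed for outlying values were chosen after their values were seen. The number of arrays limits the precision.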

Additional observations from a re-analysis of the deposited data

Results flagged for a closer look

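Of 132 groups of array values (41 members and Psmb8, Psmb9 and Psmb10 in 3 groups), 19 held an array far from the others by Dixon's 95% critical value, where chance flags about 1 in 20 groups, or 6.6. VEH replicate 3 gave 11 of the 19 and WT replicate 1 gave 4.

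On VEH replicate 3, Psma2 (5.68), Psmb2 (0.47), Psmb3 (5.11), Psmb4 (6.00), Psmb5 (3.94), Psmb6 (6.10) and Psmd4 (5.44) stood high, against VEH medians of 5.33, 0.09, 4.77, 5.49, 3.50, 5.55 and 5.12. On the same array, Psma5 (1.73), Psmc6 (2.91), Psmd3 (3.81) and Psma8 (-6.46) stood low, against VEH medians of 3.72, 3.77, 5.35 and -4.10. WT replicate 1 was low for these same 4 genes, at 2.76 for Psma5, 2.68 for Psmc6, 4.61 for Psmd3 and -5.24 for Psma8, against WT medians of 3.89, 3.89, 5.60 and -4.31.

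The other 4 outlying arrays were spread over the groups. Psmc2 was low on VEH replicate 7 (2.82, VEH median 4.19), Psma3 was high on UA replicate 6 (4.92, UA median 4.80), Psmb10 was high on UA replicate 3 (4.34, UA median 3.88) and Psmb2 was high on WT replicate 6 (0.33, WT median 0.17).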

How the results depend on the processing

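Over 36 alternative settings, 19 of which left out 1 array each, 0 members were called by limma in any comparison. At an unadjusted p under 0.05 the fits that left out 1 array gave 1 to 11 members for VEH against WT (18.6% to 28.1% of all genes), 0 to 5 for UA against VEH (12.2% to 18.3%) and 0 to 3 for UA against WT (6.58% to 11.0%); each highest count was without VEH replicate 3. The members' median difference ran from -0.09 to -0.02 over these fits for VEH against WT, from 0.001 to 0.06 for UA against VEH and from -0.04 to -0.01 for UA against WT. With the deposited values, put back on the log2 scale, the VEH-WT median was -0.15, a larger shift than the SD of 0.09 between arrays, while the median of all genes was -0.09 there. It was 0.01 among male arrays, and slide as a block gave -0.09 for VEH against WT, -0.01 for UA against VEH and -0.07 for UA against WT. With replicate number as a block the medians were -0.03, 0.01 and -0.03, and the members called remained 0.

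The count of all genes called for VEH against WT, 1294, fell to 77 with slide as a block, 23 within slide 1, 189 with the deposited values, 233 among males, 346 with the replicate block, 353 without a filter on dim probes, 426 with 2 groups only, 640 without dye normalization and 804 with the deposited scores left as they are. It was 1986 with sex as a covariate, and 391 to 2266 with 1 array left out. Of the 1294 genes 710 were higher; scaled to the probes detected on all arrays 830 of 1278 were, and with the deposited scores 323 of 804. Normexp called 1608 genes (159 higher) for UA against VEH, where the main count was 0. For UA against WT the count of 23 became 4 with slide as a block, 8 among males, 12 with the replicate block, 14 with the deposited values, 40 without VEH replicate 3 and WT replicate 1 and 42 for probes above background on all arrays.

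Psmb8 and Psmb9 each stayed called for VEH against WT in 33 of 36 settings, losing the call with slide as a block (adjusted p = 0.0735 and 0.0972) and within slide 1 (0.132 for both). Psmb8 lost it among males (0.0615) and Psmb9 with the deposited values (0.0648). With normexp both were also called for UA against VEH, among the many genes called there at that setting. Ubb stayed called in 22 of 36, Ngly1 and Rps27a in 20, and Ubqln2 in 19; the Ubb difference ran from -0.49 with slide as a block to -0.02 without dye normalization. With the mean of a gene's probes, Rps27a turned to -0.071 (adjusted p = 0.848); its second probe is well above background on 12 arrays. Where the setting itself does not show a cause, it was not tested. Leaving out both outlying arrays, dropping dye normalization, leaving out population-outlier spots and using the deposited scores as they are were chosen after seeing the data.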
